A study of Mus musculus with 2 samples.

Results

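The proteasome genes described here are the protein-coding genes of the mouse whose symbol starts with Psma, Psmb, Psmc, Psmd, Psme, Psmf or Psmg followed by a number. The rule found 50 of the 21951 protein-coding genes in the annotation. It takes in 49 genes named as parts, regulators or assembly factors of the proteasome, and Psmc3ip, which met the rule by its symbol but encodes a factor of meiotic recombination. Exons of 46 of the 50 genes held 810 of the 160430 positions that at least 1 list named as modified.

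The study set tools that call N6-methyladenosine (m6A) from nanopore direct RNA sequencing beside each other. Poly(A) RNA came from mouse 129 embryonic stem cells (mESCs), which were either wild type (WT) or a Mettl3 knockout (KO), with 1 library for each genotype. The KO line was made by CRISPR-Cas9 editing, in which drug resistance genes (puromycin, hygromycin) took the place of exons 5 to 7 of Mettl3. There was 1 WT list and 1 KO list by each of 7 tools, namely ELIGOS, Epinano, m6Anet, MINES, Nanom6A, Tombo and xPore. Of these, xPore needs a control sample to run, so its lists are not calls on 1 genotype alone. A further 3 tools, DiffErr, DRUMMER and Nanocompore, gave 1 list each that sets the genotypes against each other, called a comparison list here, which makes 17 lists in all. The lists give genome positions (build mm10) without a score, a modification rate or a read depth, and the cut-off behind each list is not given in the sources used here. With 1 library per genotype there was no replicate error and no test was made. Shares are given with 95% Wilson intervals, which cover counting error alone, and the read depth at each position is unknown.

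The proteasome degrades proteins that carry ubiquitin chains. Its core particle is a barrel of alpha and beta rings with the proteolytic sites on the inner face of some beta subunits, and the regulatory particle that caps it holds a ring of ATPases that unfold substrates beside non-ATPase subunits that bind and remove ubiquitin. Other activators can take the place of that cap. METTL3 is the catalytic subunit of the complex that writes most m6A on mRNA, at adenosines in RRACH motifs (R is A or G, H is A, C or T) and often close to the stop codon.

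Mettl3 itself was looked at first. On its transcript ENSMUST00000022767, exons 1 to 4 held 7 positions of the WT and comparison lists and 0 of the KO lists. Exons 5 to 7, the exchanged part, held 2 and 0. Exons 8 to 11 held 4 and 5. For the markers that follow, WT counts take in the comparison lists. Of 10 markers of embryonic stem cells, 9 had a listed position in each genotype. Pou5f1 had 25 in each, Zfp42 18 in each and Dppa5a 6 in each. Nanog had 37 in WT and 35 in KO, Sox2 26 and 22, Utf1 7 and 6, Esrrb 50 and 38, Tdgf1 34 and 20, and Klf4 32 and 15. Lin28a had none. Of 6 fibroblast feeder markers, Thy1 had 3 positions in WT and 1 in KO, Col1a1 had 0 in WT and 3 in KO, and the other 4 had none. Of 5 markers of differentiated cells, Sox17 had 12 positions in WT and 0 in KO, and Gata6, T, Pax6 and Foxa2 had none. A gene without a listed position can still have been expressed, and the part of these cell types in the lists was not tested.

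At least 1 list held a position in 46 of the 50 genes (92.0%), beside 46.7% of all protein-coding genes. The 4 without any were Psmb8 and Psmb9, catalytic subunits of the immunoproteasome, Psmb11, the catalytic subunit of the thymic form, and Psme2b. Of the 810 positions, 779 came from WT or comparison lists and 655 from KO lists. Both kinds of list shared 624 of them, and 155 were in no KO list. KO lists alone held 31 of the 810 (3.83%, 2.71 to 5.38%), beside 19.6% over all genes. Each of the 46 genes had between 5 and 66 positions, with a median of 14, beside a median of 13 over the 10261 protein-coding genes that had any.

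The tools took very unequal shares of the proteasome positions. Nanom6A listed 591 positions in WT and 451 in KO. Tombo listed 303 and 270, m6Anet 145 and 102, Epinano 92 and 36, MINES 31 and 33, ELIGOS 24 and 8, and xPore 19 and 14. Of the comparison lists, Nanocompore held 18 proteasome positions, DRUMMER 10 and DiffErr 9. RRACH positions were counted in all 21951 annotated protein-coding genes, of which 46.7% had a listed position, beside 92.0% of the proteasome genes. Proteasome genes hold 0.162% of the RRACH positions in exons of protein-coding genes. Their share of the Nanom6A WT list was 1.76% (1.63 to 1.91%), and their share of the Epinano WT list was 0.206% (0.168 to 0.253%). In the other WT lists it ran from 0.231% for MINES to 0.618% for m6Anet. The KO lists ranged from 0.238% for Epinano to 1.62% for Nanom6A, and the comparison lists from 0.514% for DiffErr to 0.854% for Nanocompore. Nanom6A listed 75.9% (72.7 to 78.7%) of the 779 WT or comparison positions of proteasome genes, beside 26% over all genes. For Epinano the same shares were 11.8% (9.73 to 14.3%) and 34.5%. Per gene, the median was 389 WT or comparison positions per 1000 RRACH positions over the 41 proteasome genes with at least 20 RRACH positions, beside 185 over 9488 protein-coding genes chosen in the same way.

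Absence of a WT position from the KO list was counted within each tool. For Tombo, 70 of 303 proteasome positions in WT were not in its KO list (23.1%, 18.7 to 28.2%), beside 40.3% over all genes. For Nanom6A it was 152 of 591 (25.7%, 22.4 to 29.4%), beside 34.6%. For m6Anet it was 69 of 145 (47.6%, 39.6 to 55.7%), beside 65.6%. For Epinano it was 62 of 92 (67.4%, 57.3 to 76.1%), beside 83.5%. For MINES it was 6 of 31 (19.4%, 9.19 to 36.3%), beside 59.8%. For ELIGOS it was 18 of 24 (75%, 55.1 to 88.0%), beside 88.5%, and for xPore, whose lists are not separate calls, 8 of 19 (42.1%, 23.1 to 63.7%), beside 75.1%. In all 7 tools the share absent from KO was lower in proteasome genes than over all genes, with the upper end of the interval for ELIGOS, 88.0%, just below the value over all genes. With the 4 5-mers of MINES alone, the shares for m6Anet were 64.3% (51.2 to 75.5%), beside 74.9% over all genes, for Epinano 84.4% (68.2 to 93.1%), beside 89.7%, and for ELIGOS 86.7% (62.1 to 96.3%), beside 94.3%, so that these 3 intervals held the value over all genes. For xPore it was 66.7% (39.1 to 86.2%), beside 87.2%. Against the KO list of any tool, absence was 16.2% (13.5 to 19.4%) for Nanom6A, beside 19.3% over all genes. For ELIGOS it was 16.7% (6.68 to 35.9%), beside 32.4%, so that both intervals held the value over all genes. Over all tools together, 155 of 779 WT or comparison positions were in no KO list (19.9%, 17.2 to 22.8%), beside 41% over all genes. Without Nanom6A, a choice made after seeing the data, 73.6% of the proteasome positions were in a KO list, beside 53.9% over all genes. With the KO lists of Tombo and Nanom6A left out, the shares in a KO list were 21.3% and 21.2%.

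The alpha subunits form the outer rings of the core particle and gate its entrance. Their 8 genes had 104 WT or comparison positions, from 20 in Psma1, 18 in Psma4 and 17 in Psma6 to 9 in Psma2 and 6 in Psma8, the testis-type relative of Psma7. Psma3 and Psma5 had 12 each, and Psma7 had 10. No KO list held 9 of the 104 (8.65%, 4.62 to 15.6%), beside 41% over all genes. All 10 positions of Psma7 were also in KO. Psma3, Psma4 and Psma6 had positions in a comparison list, 6 together (5.77%, 2.67 to 12%), beside 2.45% over all genes.

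The 7 constitutive beta subunits include Psmb5, Psmb6 and Psmb7, which carry the proteolytic sites. Their genes had 77 WT or comparison positions, 14 in Psmb3 and in Psmb4, 13 in Psmb1 and in Psmb7, 11 in Psmb6, 7 in Psmb5 and 5 in Psmb2. No KO list held 7 of the 77 (9.09%, 4.47 to 17.6%), beside 41% over all genes, and 4 of these 7 were in Psmb1. Psmb1 and Psmb7 each had 1 position in a comparison list, 2.60% (0.715 to 8.98%) of the 77, beside 2.45%. Among the beta subunits that are induced by interferon or limited to a tissue, Psmb10 was the one with positions, 6 in WT or comparison lists and 6 in KO lists.

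The 6 ATPases of the regulatory particle had 135 WT or comparison positions, with 29 in Psmc1, 26 in Psmc6, 23 in Psmc3, 21 in Psmc5, 19 in Psmc2 and 17 in Psmc4. Comparison lists held 0 of the 135 (0 to 2.77%), beside 2.45% over all genes, and 12 of the 135 were in no KO list (8.89%, 5.16 to 14.9%), beside 41%. By density Psmc5 came first of all proteasome genes with at least 20 RRACH positions, with 913 WT or comparison positions per 1000 RRACH positions. Psmd7 followed with 793, Psmc1 with 725, Psmd2 with 688 and Psme3 with 675.

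The 14 genes with a Psmd symbol encode the other subunits of the regulatory particle, with the chaperones Psmd5, Psmd9 and Psmd10, which help to build it. They had 292 WT or comparison positions. The scaffold subunits Psmd1 and Psmd2 had 38 and 33, Psmd12 29 and Psmd3 27. Psmd7 and Psmd8 had 23 each, and Psmd11 and the deubiquitinase Psmd14 had 21 each. Below them were Psmd5 with 19, Psmd6 with 18, Psmd13 with 14, the ubiquitin receptor Psmd4 with 13, Psmd9 with 7 and Psmd10 with 6. No KO list held 60 of the 292 (20.5%, 16.3 to 25.6%), beside 41% over all genes. Within this group the genes ranged from Psmd7, where all 23 were also in KO, to Psmd11, where 9 of 21 were in no KO list, and Psmd9, where it was 4 of 7. The group held 12 positions of a comparison list (4.11%, 2.37 to 7.04%), beside 2.45%, in 7 genes, and 6 of the 12 were in Psmd7.

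The activators had 106 WT or comparison positions, of which 44 were in no KO list (41.5%, 32.6 to 51.0%), close to the 41% over all genes. Psme4, a large activator that binds the core particle without ATP, had 64, the most of any proteasome gene, and 31 of them were in no KO list. It also has the most RRACH positions, 139. Psme3, the nuclear activator, had 27 positions with 9 in no KO list, Psme1 had 10 with 2, and Psme2 had 5 with 2. Psmf1, an inhibitor of the core particle, had 16 with 7 in no KO list. The 4 assembly chaperones had 33, with 12 in Psmg1, 9 in Psmg3, 8 in Psmg2 and 4 in Psmg4, and 12 of the 33 were in no KO list (36.4%, 22.2 to 53.4%), an interval that holds the 41% over all genes. Psmc3ip had 10, with 3 in no KO list. Over all genes the Nanom6A lists held 33539 positions in WT and 27861 in KO. For the ATPases they held 117 positions in WT and 112 in KO, for the alpha subunits 95 and 86, and for the constitutive beta subunits 70 and 69. For the Psmd genes the counts were 231 and 152, and for the activators 61 and 24.

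**Figure D1:**
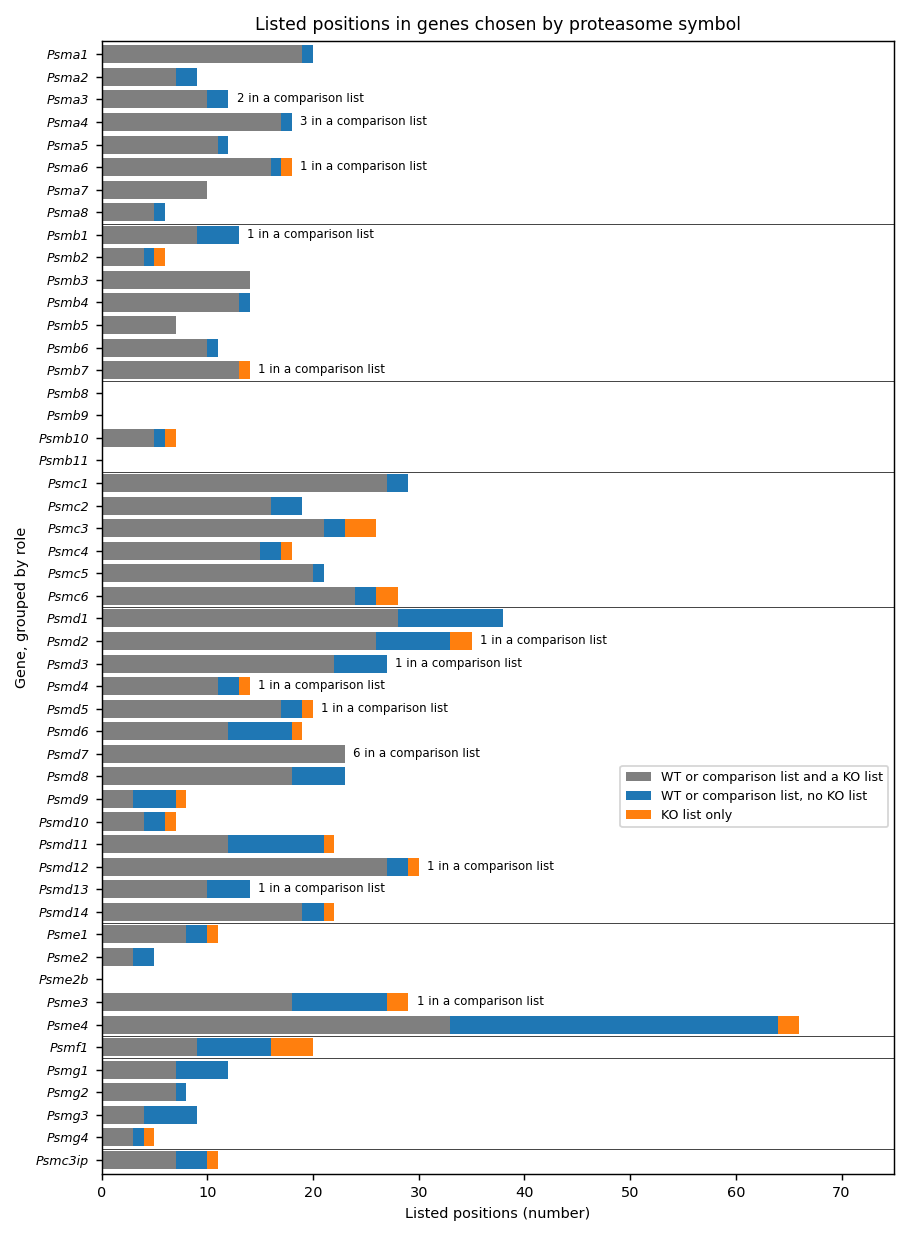
Number of listed positions (horizontal axis) in each of the 50 genes (vertical axis), grouped by role with a line between roles; grey is a WT or comparison position that KO lists share, blue one in no KO list and orange one in KO lists alone, and text gives the number in a comparison list. Psme4 has the longest bar, with 31 blue positions of 64, and the 23 positions of Psmd7 are all grey.

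The comparison lists hold positions that a tool called different between the genotypes. They held 21 proteasome positions in 13 genes. That is 2.70% (1.77 to 4.09%) of the 779 positions, beside 2.45% over all genes. With Psmd7 left out of the proteasome genes, also chosen after seeing the data, the share was 1.98%, below the value over all genes, from which no gene was left out. Psmd7 had the most comparison positions of the proteasome genes, so a lower share was fixed in advance. Without Nanom6A, a choice made after seeing the data, the shares were 4.39% (2.89 to 6.62%) and 2.74%. Without Tombo, chosen in the same way, they were 3.10% (2.03 to 4.69%) and 3.51%, so that their order turned. With the 4 5-mers of MINES alone they were 6.39% (4.03 to 10%) and 4.74%. By gene it is 13 of the 46 with a position (28.3%), beside 15.3% over all genes. With 2 or more such positions there were 3 of the 46 genes (6.52%), beside 7.24%, and with 3 or more there were 2 (4.35%), beside 3.61%. Psmd7, a non-catalytic partner of Psmd14, had 6 and Psma4 had 3. Psma3 had 2, and Psmb1, Psmb7, Psma6, Psmd2, Psmd3, Psmd4, Psmd5, Psmd12, Psmd13 and Psme3 had 1 each. Of the 21, 20 lay in the last exon of their transcript, 14 in the 3' UTR and 7 in the coding sequence. These are 95.2% (77.3 to 99.2%), 66.7% (45.4 to 82.8%) and 33.3% (17.2 to 54.6%), beside 82.7%, 61.2% and 37.8% of the comparison positions over all genes. Nanom6A listed 20 of the 21 in WT (95.2%, 77.3 to 99.2%), beside 89.6% of the 3166 comparison positions over all genes. The other WT lists held 15 for Tombo (71.4%, 50.0 to 86.2%), beside 76.3%, 14 for m6Anet (66.7%, 45.4 to 82.8%), beside 80.5%, 10 for ELIGOS (47.6%, 28.3 to 67.6%), beside 47.7%, 9 for Epinano (42.9%, 24.5 to 63.5%), beside 57.6%, 5 for xPore (23.8%, 10.6 to 45.1%), beside 48.8%, and 4 for MINES (19%, 7.67 to 40%), beside 20.2%. In KO, Nanom6A listed 15 of the 21 (71.4%, 50.0 to 86.2%), beside 48.5%, Tombo 9 (42.9%, 24.5 to 63.5%), beside 37.2%, m6Anet 3 (14.3%, 4.98 to 34.6%), beside 19%, MINES 3 (14.3%, 4.98 to 34.6%), beside 5.84%, xPore 2 (9.52%, 2.65 to 28.9%), beside 13.7%, Epinano 0 (0 to 15.5%), beside 3.85%, and ELIGOS 0 (0 to 15.5%), beside 0.442%. In no KO list were 2 of the 21 (9.52%, 2.65 to 28.9%), beside 23.5%.

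All 3 comparison lists held 6 of the 21 comparison positions, in Psma4, Psmd7 and Psmb1, a count not given over all genes. They are printed with the bases around them, read from the genome in transcript direction, with the 5-mer centred on the listed adenosine in capitals.
Psma4, chr9:54957901-54957921, plus strand: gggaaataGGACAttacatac
Psma4, chr9:54957960-54957980, plus strand: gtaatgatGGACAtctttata
Psmd7, chr8:107580729-107580749, minus strand: agatgagtGGACAaaaggacg
Psmd7, chr8:107581240-107581260, minus strand: gcttgaagGGACTgaactcca
Psmd7, chr8:107580454-107580474, minus strand: caccttttGGACCtgtaacta
Psmb1, chr17:15476014-15476034, minus strand: ctgcggaaAGACTgacatgcg
The listed adenosine is the middle base of each sequence.

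Both Psma4 positions were listed by all 10 tools. They lie in the 3' UTR in exon 9 of 9, 124 and 183 nt after the first base of the stop codon. The first was in the KO lists of Nanom6A and Tombo, and the other in that of Nanom6A. Over all genes, 62 positions were listed by all 10 tools. The remaining Psma4 position, chr9:54957790, was listed by Nanocompore, Nanom6A and Tombo. It is the first base of the 3' UTR, 3 nt after the first base of the stop codon.

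Psmd7 had its 6 comparison positions in exon 7 of 7, which is 939 nt long. The position at chr8:107580739, 147 nt after the first base of the stop codon, was listed by 9 tools, without Epinano, and in KO by MINES, Nanom6A and Tombo. The position at chr8:107581250 is in codon 200, at -364 nt from the first base of the stop codon. Beside the 3 comparison lists it was in the WT lists of ELIGOS, Epinano, Nanom6A, Tombo and m6Anet, and in the KO lists of Nanom6A, Tombo, m6Anet and xPore. The position at chr8:107580464 lies 422 nt after the first base of the stop codon and was in the WT lists of ELIGOS, Epinano, Nanom6A and m6Anet and in the KO list of Nanom6A. DRUMMER and a second comparison list held chr8:107580500 and chr8:107580790, with 7 and 6 tools, and Nanocompore alone among the comparison lists held chr8:107581308. Adjacent comparison positions of Psmd7 were between 36 and 460 nt apart.

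In Psmb1 the listed base at chr17:15476024 is, on ENSMUST00000014913, the middle base of codon 240, the last before the stop codon. On ENSMUST00000231341 it lies in the 3' UTR, 1218 nt past the first base of the stop codon. Beside the 3 comparison lists it was in the WT lists of ELIGOS, Epinano, Nanom6A, Tombo and m6Anet, and in the KO list of Nanom6A. The position in Psma6, chr12:55418290, is also the middle base of the last sense codon, codon 246, and was in the comparison list of Nanocompore and in both lists of Nanom6A. The sites in Psmd4 and Psmd12 were each in the lists of DiffErr and DRUMMER and were named by 7 tools in WT or comparison lists. These sites, with chr8:107580500 and chr8:107580790 of Psmd7, are the 4 held by 2 comparison lists and were singled out after their values were seen. That count is not given over all genes.
Psmd4, chr3:95032769-95032789, minus strand: ctgcccggGGACTgtaaagac
Psmd12, chr11:107497776-107497796, plus strand: aaaaagaaAGACTgttttcat
The Psmd12 site lies 55 nt after the first base of the stop codon and was in the KO list of Nanom6A. The Psmd4 site was in the KO lists of MINES, Nanom6A, Tombo and m6Anet. On ENSMUST00000107237 it lies 37 nt past the first base of the stop codon, and on ENSMUST00000117355, whose stop codon comes earlier, 567 nt past it.

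**Figure D2:**
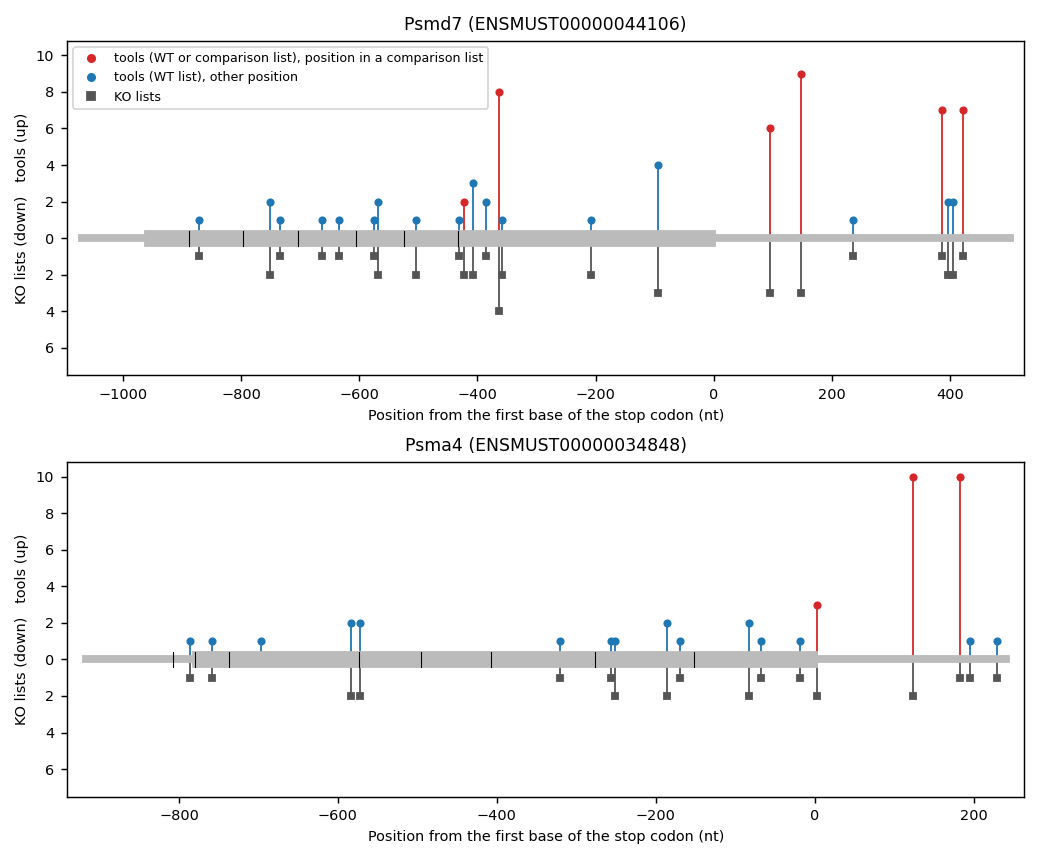
Listed positions along the spliced transcripts of Psmd7 and Psma4, in nt from the first base of the stop codon (horizontal axis); upward stems give the number of tools with the position in a WT or comparison list, red where a comparison list holds it, downward squares give the number of KO lists, the thick bar is the coding sequence and short black lines are exon junctions. The 6 red stems of Psmd7 and the 3 of Psma4 are all in the last exon.

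Of all 779 WT or comparison positions, 59.7% had 1 tool, beside 65.3% over all genes. Positions in WT or comparison lists and in no KO list were mostly named by 1 tool, 129 of the 155. Of the others, 20 were named by 2 tools and 6 by 3 or more, a split not given over all genes. The site in Psmg3, an assembly chaperone, was named by the most, with ELIGOS, Epinano, Nanom6A, Tombo, m6Anet and xPore. It lies in exon 3 of 3 in the 3' UTR, 143 nt after the first base of the stop codon, and no comparison list held it. Psmd3 followed with Nanocompore, Nanom6A, Tombo and m6Anet, in exon 12 of 12 and 110 nt after the first base of the stop codon. These are the bases around them.
Psmg3, chr5:139823770-139823790, minus strand: agtctcagGGACTctccctgc
Psmd3, chr11:98695698-98695718, plus strand: cggctcacAGACTgcatatgt
The others with 3 tools were Psmd5 chr2:34852763, a GGACC in codon 443, and Psme4 chr11:30810916, chr11:30852763 and chr11:30880275, which lie in exons 10, 39 and 47 of 47. Next in genome order among those with 2 tools came Psmd1 chr1:86083163, Psmf1 chr2:151719560, Psmd9 chr5:123248645 and Psmg3 chr5:139823679.

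At the other end are positions that the same tool listed in WT and in KO. For 2 positions 4 tools did so, and for 22 positions in 16 genes 3 tools did so, without a count over all genes. The former are Psmd4 chr3:95033924, a coding GGACT in exon 7 of 10 on ENSMUST00000107237, with MINES, Nanom6A, Tombo and m6Anet, and Psmd8 chr7:29174381, a GGACT in the 3' UTR, with Epinano, MINES, Nanom6A and Tombo. A further Psmd8 position, chr7:29174389, lies just upstream on the transcript and was listed in both genotypes by MINES, Nanom6A and Tombo.
Psmd4, chr3:95033914-95033934, minus strand: tacacctgGGACTgaagactc
Psmd8, chr7:29174371-29174391, minus strand: agactgagGGACTcttctatc
The remaining positions named under the same rule, with 3 tools each, were in Psmd14 (chr2:61776723), Psmb4 (chr3:94886645), Psmd4 (chr3:95032779 and chr3:95036740), Psma5 (chr3:108279805), Psmc2 (chr5:21799941) and Psmc4 (chr7:28047206). Of the 31 positions in KO lists alone, 28 were named by 1 tool, a split not given over all genes. The 3 with 2 tools were Psmc3 chr2:91056796, Psmc4 chr7:28048819 and Psmd12 chr11:107498017. Of those with 1 tool, the first in genome order were Psmd5 chr2:34863507 and Psmb7 chr2:38643918.

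On their transcripts, 79.4% (76.4 to 82.1%) of the 777 WT or comparison positions that could be placed lay in the coding sequence and 18% (15.5 to 20.9%) in the 3' UTR, beside 56.3% and 40.4% over all genes. Proteasome transcripts were shorter, with a median of 1491 nt beside 2847 nt. Their median 3' UTR was 268 nt, beside 968 nt over 10042 genes, and 67.1% of their RRACH positions were in the coding sequence, beside 53.9%. Within 200 nt of the stop codon lay 27.3% (24.3 to 30.5%) of the WT or comparison positions and 27.0% (23.8 to 30.6%) of the KO positions, beside 22.6% and 21.2% over all genes. Among positions with 2 or more tools the shares near the stop codon were 29.1% (24.3 to 34.3%) and 29.3%. The RRACH positions of the same transcripts gave 20.8% for proteasome genes and 12.7% over all genes. For the 21 comparison positions the share near the stop codon was 66.7% (45.4 to 82.8%), beside 51.1% over all genes. The last exon held 28.6% (25.5 to 31.8%) of the WT or comparison positions of proteasome genes, beside 52.2% over all genes. Of the RRACH positions it held 35.7% and 49.9%.

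The 5-mer was RRACH on the genome at 808 of the 810 positions, and at the other 2 on the spliced transcript. GGACT made up 8.99% (7.17 to 11.2%) of the WT or comparison positions and 10.1% (8.0 to 12.6%) of the KO positions, beside 11.9% and 9.69% over all genes, and 7.77% of the RRACH positions of proteasome transcripts. Among positions with 2 or more tools it made up 16.2% (12.6 to 20.7%), beside 21% over all genes, and without Nanom6A 11.9% (9.32 to 15.1%), beside 13%. Among the 21 comparison positions were 6 with AGACT, 5 with GGACA, 4 with GGACT, 2 with GGACC and 2 with AGACA, and 1 each with AGACC and GAACT. The share of GGACT was then 19% (7.67 to 40%), beside 33.9% over all genes.

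Of the 779 WT or comparison positions, 314 were listed by 2 or more tools (40.3%, 36.9 to 43.8%), beside 34.7% over all genes. Support by 5 or more tools was found for 15 positions in 9 genes (1.93%, 1.17 to 3.15%), beside 3.28%. A comparison list held 12 of the 15 (80%, 54.8 to 93.0%), beside 52.1% over all genes. The count of tools takes in the comparison lists, so both shares are partly fixed by how tools were counted. The other 3 were Psmg3 chr5:139823780, Psmd4 chr3:95033924 and Psmd10 chrX:140949171, of which the last was singled out after its values were seen. Of the 465 positions with 1 tool, 64.7% (60.3 to 68.9%) came from Nanom6A, beside 15.8% over all genes. Without Nanom6A, 20.9% of the proteasome positions had 2 or more tools, beside 30.2% over all genes, so that the order of these values turned. Without Tombo the shares were 26% (22.8 to 29.4%) and 25.4%.

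Of 30 other genes of the ubiquitin-proteasome system, 29 were matched and 29 had a listed position. They had 538 WT or comparison positions, with 144 in no KO list (26.8%, 23.2 to 30.7%), beside 41% over all genes. Comparison lists held 24 of the 538 (4.46%, 3.02 to 6.55%), beside 2.45%, in 10 of the 29 genes (34.5%, 19.9 to 52.7%), beside 15.3%. Nfe2l1, the transcription factor that raises proteasome gene expression when the proteasome is inhibited, had 28 positions with 18 in no KO list, and Ddi2, the protease that activates it, had 22 with 15. For Vcp, the ATPase that extracts ubiquitylated proteins, it was 2 of 33. Nfe2l2, a stress-response transcription factor, and the shuttle factor Ubqln4 had 5 comparison positions each. Ube3a, a ubiquitin ligase, had 0 positions in WT or comparison lists and 5 in KO lists.

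The 31 bases around 103 of the 810 positions, in 17 genes, also occur in an annotated transcript of another gene, where those bases do not tell the 2 genes apart. Psmd2 shares 17 such positions with Gm5422, Psma3 10 with Gm13835, and Psme2 4 with Psme2b. This holds for 2 of the 21 comparison positions and for 0 of the 15 with 5 or more tools. Exons of a further gene on the same strand overlap 9 positions in Psmd1 and Psmg3.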

How the data were processed

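The authors sequenced poly(A) RNA of 1 WT and 1 Mettl3 KO mESC library on nanopore flow cells, aligned the reads to transcripts of an earlier GENCODE release with Minimap2, and ran 10 m6A tools. The 17 deposited lists hold genome positions (mm10 per the labels) with a transcript or gene name, without count, score or rate. The cut-off behind each list is not given in the sources used here. The lists differ in size from the site numbers the study states for its own cut-offs, so every share holds for the lists as deposited.

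Here, unique positions (chromosome, base, strand) were assigned to genes by exon overlap on the same strand (GENCODE release 21). Of 16356 named transcripts, 16348 were found. Positions were placed on a protein-coding transcript, one named by a list where possible. Shares near the stop codon count positions within 200 nt of its first base. Overlaps were exact and tested on simulated lists. Wilson intervals (95%) came from scipy 1.17.1. The members and lists of genes were chosen with earlier results of these data known. Named were the genes with comparison positions, up to 12, the 5 with most positions, the 5 with the highest density, and those with none. Named positions were up to 10 by number of tools in no KO list, up to 10 by tools listing both genotypes, all in 3 comparison lists and up to 5 in KO alone, with ties in genome order. Alternatives were lines, names, 5-mers, match distance, windows and tools left out.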

Additional observations from a re-analysis of the deposited data

How the results depend on the processing

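Without replicates, a share was held to be unchanged where it stayed in its 95% interval and a count where it stayed within 1.5 times. Of 159 recomputed values 132 did so, and none could not be computed. For the 27 others the cause was not tested beyond how each alternative is built. No paired analysis was possible because no result came from a test. Counting every line gave 1337 WT or comparison entries. With the 4 5-mers of MINES, the share also in KO was 71.4% for Tombo (53.6% over all genes) and 35.7% for m6Anet (25.1%). It was 15.6% for Epinano (10.3%) and 33.3% for xPore (12.8%), and comparison lists held 6.39% of positions (4.74% over all genes). Against the KO list of any tool, the shares were 86.5% for Tombo (65.9% over all genes), 96.8% for MINES (68.9%) and 83.8% for Nanom6A (80.7%). They were 84.1% for m6Anet (64.1%), 83.3% for ELIGOS (67.6%), 76.1% for Epinano (43.7%) and 89.5% for xPore (67.6%). The merged share in a KO list was 21.3% without the KO lists of Tombo and Nanom6A (21.2% over all genes), with their WT positions still counted. It was 75.2% without Tombo (47.0% over all genes), where 26% of positions had 2 or more tools (25.4%). Near the stop codon, windows of 100 and 400 nt gave 15.8% and 45.4% for WT or comparison positions and 16.5% and 45.6% for KO. Over all genes the same windows gave 12.6% and 38.8%, and 11.5% and 37.2% for KO. GGACT made up 16.2% of positions with 2 or more tools (21% over all genes). Leaving out Nanom6A, chosen after seeing the data like leaving out Psmc3ip or Psmd7 or, for comparison lists, Tombo, gave 478 WT or comparison and 400 KO positions, 73.6% in a KO list, 4.39% in a comparison list, 11.9% GGACT and 20.9% with 2 or more tools. Leaving out Psmd7 left 15 comparison positions. They were 1.98% of the WT or comparison positions, beside 2.45% over all genes with no gene left out. As Psmd7 had the most comparison positions, this fall was fixed in advance. The lists give no read depth, so a position missing from a list cannot be told apart from one with too few reads.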
